A study of Mus musculus with 6 samples.

Results

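Kruppel-like factors (Klf) are transcription factors that bind GC-rich and CACCC-containing DNA through zinc fingers at the carboxy terminus. Klf2, Klf4 and Klf5 belong to the transcription factor network that holds mouse pluripotent stem cells in the naive state, in which they act partly in place of one another, and Klf5 is also needed for trophectoderm in the embryo. Klf4 is a known target of the cytokine LIF through STAT3, and Klf2 has been linked to Oct4. The 8 family members described here are Klf2, Klf3, Klf4, Klf5, Klf6, Klf9, Klf10 and Klf13. They were chosen by symbol as members of the family, with earlier results of these data known. The deposited table spells its 18388 gene symbols in capitals, and each of KLF2, KLF3, KLF4, KLF5, KLF6, KLF9, KLF10 and KLF13 was found in it once. All 8 passed the filter on low values, a mean of at least 1 FPKM over the libraries. Klf3, Klf6, Klf9, Klf10 and Klf13 are family members with roles mostly outside naive pluripotency, so the set is a family set and not a naive signature.

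The measurements are RNA-seq of morula-like aggregates, clusters that model the compacting mouse embryo, grown from mouse expanded pluripotent stem cells in N2B27LCDM medium and then in an induction medium, at 37 °C under 20% O2 and 5% CO2. There were 3 libraries from aggregates given the vehicle DMSO and 3 from aggregates given perfluorooctanoic acid (PFOA), a persistent fluorinated surfactant. The labels name no strain or cell line, no PFOA dose and no exposure time. Nothing in them ties the 3 libraries of a group to 3 separate cultures, and every p-value is therefore relative to a spread that may be technical.

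Levels are in FPKM, fragments per kilobase of transcript scaled to the mapped fragments of the library, so they can be compared between genes of different length. The FPKM of all genes added up to 641975 to 657239 per DMSO library and to 585739 to 630644 per PFOA library, lowest in PFOA 1. The depth of the libraries is unknown. No marker list was made for the expanded or morula-like state, so the marker lists do not bear on that part of the label. All 7 pluripotent stem cell markers were above 1 FPKM, and Pou5f1 (Oct4) was between 849 and 1018 FPKM. Their summed level was 4483 to 4695 FPKM in DMSO and 3834 to 4329 in PFOA, without overlap. The largest part of this sum is Dppa5a, a gene with a short transcript (619 nt), whose log2 fold change was −0.21 and, with a length trend removed as described below, −0.024. Of the 7 markers 2 were higher in PFOA, and 4 with the length trend removed. Trophectoderm markers, 6 of 7 above 1 FPKM, summed to 510 to 583 in DMSO and 495 to 564 in PFOA, mostly from the keratins Krt8 and Krt18. Over the 6 libraries Tfap2c averaged 27.2 FPKM, Cdx2 6.80, Eomes 5.11 and Gata3 3.93, while Elf5 was at most 0.10. The other marker lists, of cells that aggregates or their cultures could hold, summed to far less. Primitive endoderm markers, of which 1 of 6 was above 1 FPKM, summed to 3.89 to 4.92 in DMSO and 4.29 to 4.58 in PFOA. Feeder fibroblast markers, 6 of 8 above 1 FPKM, summed to 21.3 to 26.0 and 19.7 to 21.8. Endothelial markers summed to 21.6 to 24.3 and 24.4 to 24.8, without overlap and mostly from Pecam1, with Cdh5 at most 0.21 FPKM. Blood markers, 2 of 4 found above 1 FPKM, summed to 36.3 to 38.9 and 33.0 to 39.1, mostly from Cd68, at 28.5 to 32.9 FPKM over the 6 libraries. Hba-a1 was at 4.07 to 7.13 and Ptprc at most 0.08. No marker in the table was at 0 in all libraries. The part of these cell types in the results was not tested. In bulk RNA, fewer cells of a type and less RNA per cell cannot be told apart.

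The family likeness lies in the coding stretch of the zinc fingers. In the longest coding transcript of each member (GENCODE M21, GRCm38) 3 fingers were found, spanning 243 nt from the first cysteine codon to the last histidine codon. Over the 28 pairs of members, 57.2% to 78.2% of these bases were identical, with Klf2 and Klf4 the closest pair (190 of 243). These are shown because reads from the shared part are where paralogs could be confused. Capitals mark the bases at which Klf2 and Klf4 differ.
Klf2: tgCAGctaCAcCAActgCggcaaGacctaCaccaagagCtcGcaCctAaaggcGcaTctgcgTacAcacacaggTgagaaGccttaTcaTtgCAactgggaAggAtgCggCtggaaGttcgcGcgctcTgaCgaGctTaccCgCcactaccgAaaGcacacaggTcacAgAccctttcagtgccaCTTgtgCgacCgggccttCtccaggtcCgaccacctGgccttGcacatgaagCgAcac
Klf4: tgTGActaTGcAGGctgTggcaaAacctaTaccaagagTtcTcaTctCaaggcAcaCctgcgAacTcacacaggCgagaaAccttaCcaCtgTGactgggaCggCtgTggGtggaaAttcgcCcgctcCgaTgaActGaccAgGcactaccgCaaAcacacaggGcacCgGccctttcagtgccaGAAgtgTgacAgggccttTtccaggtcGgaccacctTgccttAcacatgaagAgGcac
The differences fall throughout the stretch, and the longest run identical between Klf2 and Klf4 was 14 nt. Over all pairs the longest was 24 nt, between Klf5 and Klf9. Of the 50-nt words in each member's transcript, none of those of Klf2, Klf6, Klf9 and Klf10 occurred in a transcript of another gene. The share was at most 0.268% for the others (Klf4, with a predicted gene), and no shared word was with another Klf gene.

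Klf2 stood far above the rest of the family in every library. Klf2 averaged 234 ± 19 FPKM (SD, n = 6 libraries), followed by Klf5 at 54.9 ± 3.9, Klf4 at 54.2 ± 2.4, Klf9 at 47.1 ± 2.1, Klf10 at 32.2 ± 0.40, Klf3 at 21.8 ± 0.57, Klf6 at 19.8 ± 1.3 and Klf13 at 11.5 ± 0.73. By mean level Klf2 ranked 365 among the 18388 genes, Klf5 ranked 1771 and Klf13 ranked 6093. Neighbours in this order were apart in range over the 6 libraries except for Klf5 and Klf4, and Klf3 and Klf6. Klf5 was above Klf4 in 4 of 6 libraries, and the order of their means changed between groups, with Klf4 the higher in DMSO (53.4 against 51.5 FPKM) and Klf5 the higher in PFOA (58.4 against 55.0). Klf3 was above Klf6 in 6 of 6 libraries although the ranges of levels overlapped.

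PFOA and DMSO were compared in limma on log2(FPKM + 1) over 11876 genes, two-sided, with Benjamini-Hochberg adjustment over all of them. A fold change is on that scale. None of the 8 members passed an adjusted p of 0.05, a threshold that 0.00842% of all tested genes (1 gene) passed. At an unadjusted p under 0.05, 1 member was higher in PFOA (Klf5) and 1 lower (Klf2), against 21.1% of all tested genes, 8.56% higher and 12.5% lower. The 2 groups of libraries did not overlap for Klf5 and Klf13, which were higher in PFOA, and for Klf2, which was lower. That was so for 27.2% of all tested genes, 13.5% higher and 13.7% lower, so 3 of 8 members is near the background. In all, 6 of 8 members had a higher mean in PFOA, against 47.6% of all tested genes, and the median log2 fold change of the members was 0.052 against −0.0065 over all genes. The members' median was 0.028 without PFOA 1 and 0.023 with the length and GC trends described below removed.

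**Figure D1:**
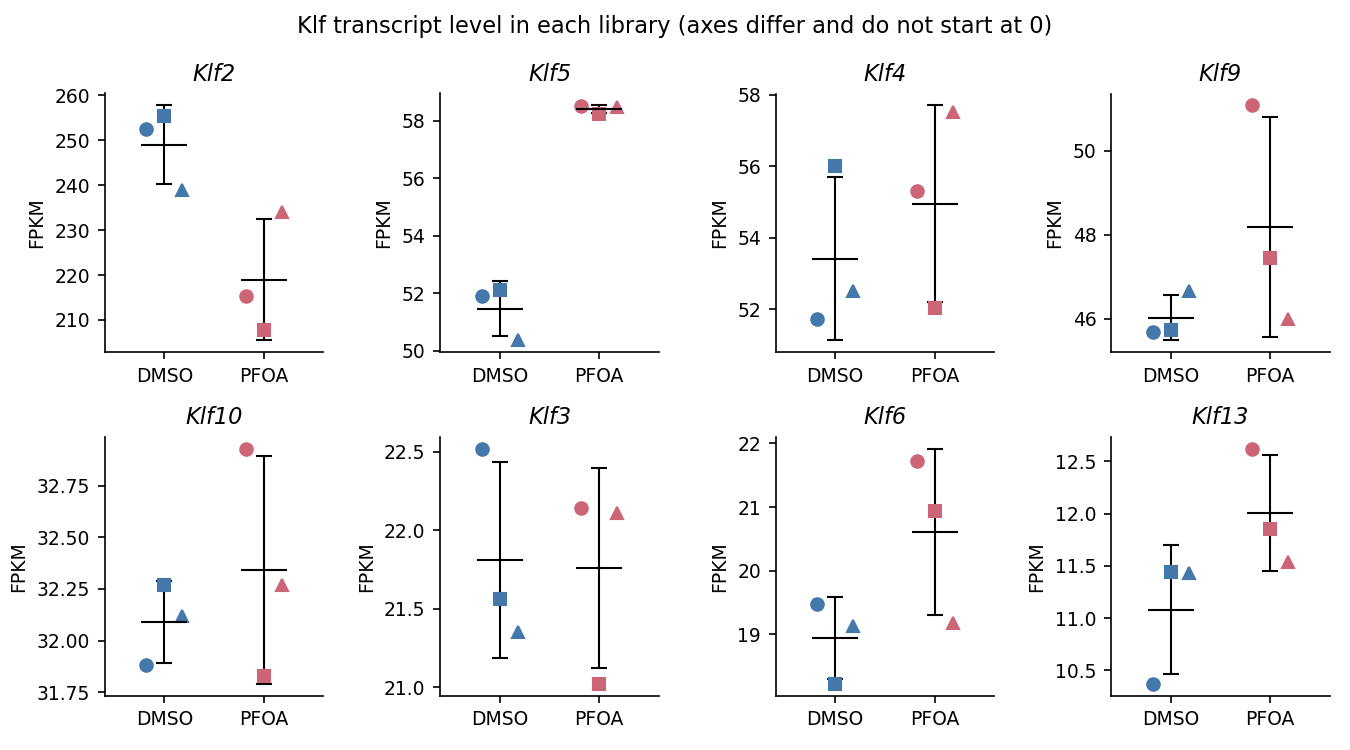
FPKM (vertical axis, a scale of its own in each panel and not starting at 0) of the 8 Klf genes in the DMSO and PFOA libraries, ordered by mean level. Circles, squares and triangles are replicates 1, 2 and 3, and bars are mean ± SD (n = 3); Klf2 lies lower and Klf5 and Klf13 higher in each PFOA library than in each DMSO library, while the other panels overlap.

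None of the 3 naive factors passed the adjusted threshold. Before any trend was removed, Klf5 had the higher and Klf2 the lower values in PFOA without overlap, and the Klf4 groups overlapped. In the DMSO libraries Klf5 was 51.9, 52.1 and 50.4 FPKM, and in the PFOA libraries 58.5, 58.3 and 58.5. Each PFOA library was above each DMSO library, and the SD among the PFOA libraries was 0.13 FPKM. The mean was 13.5% higher (log2 fold change 0.18, SE 0.034, 95% confidence interval 0.10 to 0.26, limma unadjusted p = 0.00059, adjusted p = 0.11). The log2 fold change of Klf5 was between 0.16 and 0.22 in all 18 alternatives, none of which took it past the adjusted threshold. Those that change only the filter, the prior variance or the replicate block cannot alter a log2 fold change. Its symbol was not in the promoter table used here, nor was that of Klf10.

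Klf2 was 253, 255 and 239 FPKM in the DMSO libraries against 215, 208 and 234 in the PFOA libraries. The PFOA libraries were all below the DMSO libraries, but DMSO 3 and PFOA 3 were close to each other. The SD was 8.82 FPKM among the DMSO libraries and 13.5 among the PFOA libraries (n = 3), and the mean was 12.1% lower (log2 fold change −0.19, SE 0.052, 95% confidence interval −0.30 to −0.067, limma unadjusted p = 0.0065, adjusted p = 0.137). Under quantile normalization the log2 fold change of Klf2 was −0.093 and the groups overlapped, and with DMSO 3 as the sole control, which is then assumed to vary like the other libraries, it was −0.13.

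Klf4 was 51.7, 56.0 and 52.5 FPKM in DMSO and 55.3, 52.0 and 57.5 in PFOA. The 2 groups were interleaved. Its log2 fold change was 0.040 with a 95% confidence interval of −0.072 to 0.15 (limma adjusted p = 0.67). The value was 0.0069 without PFOA 3 and 0.078 without PFOA 2.

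Ratios within a library do not depend on a linear scaling of that library. Klf2 was 4.88, 4.56 and 4.55 times Klf4 in DMSO and 3.89, 3.99 and 4.07 times in PFOA, without overlap (difference in log2 ratio −0.23). Klf5 was 1.00, 0.93 and 0.96 times Klf4 in DMSO and 1.06, 1.12 and 1.02 times in PFOA, also without overlap (0.14). The ratio of Klf5 to Klf2 was 0.206, 0.204 and 0.211 in DMSO and 0.272, 0.280 and 0.250 in PFOA (0.37). This ratio follows from the other ratios, so its wider difference is no separate result and the 3 ratios are not independent. Each of the 3 differences had an exact permutation p of 0.1 (two-sided, and 0.1 adjusted over the 3 ratios), the smallest possible with 3 against 3 libraries. For Klf5 to Klf2 this p was fixed beforehand, since the groups were already apart in opposite directions for Klf5 and Klf2. With trends on transcript length and GC content removed, as described below, the differences were −0.11 for Klf2 to Klf4, 0.11 for Klf5 to Klf4, for which the groups then overlapped, and 0.23 for Klf5 to Klf2.

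Summed over the 8 members, Klf transcripts were 486, 493 and 473 FPKM in the DMSO libraries against 470, 451 and 481 in the PFOA libraries, so the groups overlapped (484 ± 10 and 467 ± 15, SD, n = 3 each). The largest part of this sum is Klf2. Klf2 made up 52.0%, 51.8% and 50.6% of it in DMSO and 45.8%, 46.0% and 48.6% in PFOA. Klf5 made up 10.7%, 10.6% and 10.7% in DMSO and 12.5%, 12.9% and 12.2% in PFOA. The 7 members other than Klf2 summed to 234, 237 and 234 FPKM in DMSO and 254, 243 and 247 in PFOA, with PFOA 1 the highest. Shares of a sum are not independent, and a lower Klf2 raises the share of every other member.

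**Figure D2:**
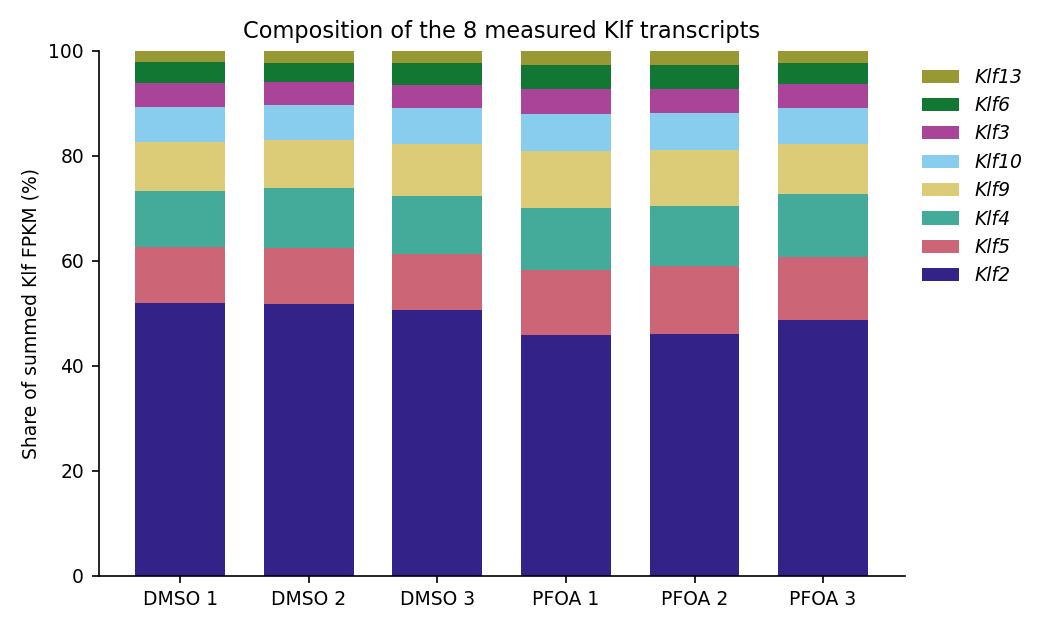
Share (%) of each Klf gene in the summed FPKM of the 8 genes, 1 bar per library. The Klf2 share at the bottom is 50.6% to 52.0% in the DMSO libraries and 45.8% to 48.6% in the PFOA libraries.

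Klf3 and Klf10 had the smallest fold changes of the 8. Klf3, a repressor that recruits the corepressor CtBP, was 22.5, 21.6 and 21.4 FPKM in DMSO and 22.1, 21.0 and 22.1 in PFOA, and the groups overlapped (log2 fold change −0.0034, 95% confidence interval −0.10 to 0.094). Klf10, a gene induced early by TGF-β, was 31.9, 32.3 and 32.1 in DMSO and 32.9, 31.8 and 32.3 in PFOA. Klf10 had the smallest relative spread over the 6 libraries of the 8 members (32.2 ± 0.40 FPKM; log2 fold change 0.011, 95% confidence interval −0.070 to 0.092).

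Klf9 and Klf13 are close relatives that bind the SIN3A corepressor, and Klf9 responds to glucocorticoids. Klf9 was 45.7, 45.7 and 46.7 FPKM in DMSO and 51.1, 47.5 and 46.0 in PFOA, and PFOA 3 was within the DMSO range (log2 fold change 0.063, 95% confidence interval −0.039 to 0.17). Klf13 was 10.4, 11.4 and 11.4 in DMSO and 12.6, 11.9 and 11.5 in PFOA. Each PFOA value of Klf13 was above each DMSO value, PFOA 3 by a narrow margin (log2 fold change 0.11, 95% confidence interval −0.023 to 0.24, limma adjusted p = 0.316).

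Klf6, a widely expressed growth-regulating factor, was 19.5, 18.2 and 19.1 FPKM in DMSO and 21.7, 20.9 and 19.2 in PFOA. PFOA 3 lay inside the DMSO range and the other 2 PFOA libraries above it (log2 fold change 0.11, 95% confidence interval −0.0091 to 0.24, limma adjusted p = 0.266). Klf6, Klf9, Klf10 and Klf13 were each highest in PFOA 1, the library with the lowest FPKM sum. Without PFOA 1 the log2 fold changes were 0.078 for Klf6, 0.021 for Klf9, −0.0018 for Klf10 and 0.073 for Klf13.

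Fold changes moved with transcript length and base composition over the whole table, and the members span much of both. Among genes whose longest coding transcript is 1000 to 2000 nt, 18.1% were higher in PFOA and the median log2 fold change was −0.091, while among those of 5000 to 7000 nt 80.6% were higher and the median was 0.072. Genes with a GC content of 60% or more had a median of −0.091 and those of 45% to 48% a median of 0.021. Klf2 has the shortest transcript (1847 nt) and the highest GC content (61.6%) of the 8, and Klf13 the longest transcript (6396 nt). Klf5 (3352 nt, 47.9% GC) belongs to classes whose medians were 0.0064 by length and 0.021 by GC.

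**Figure D3:**
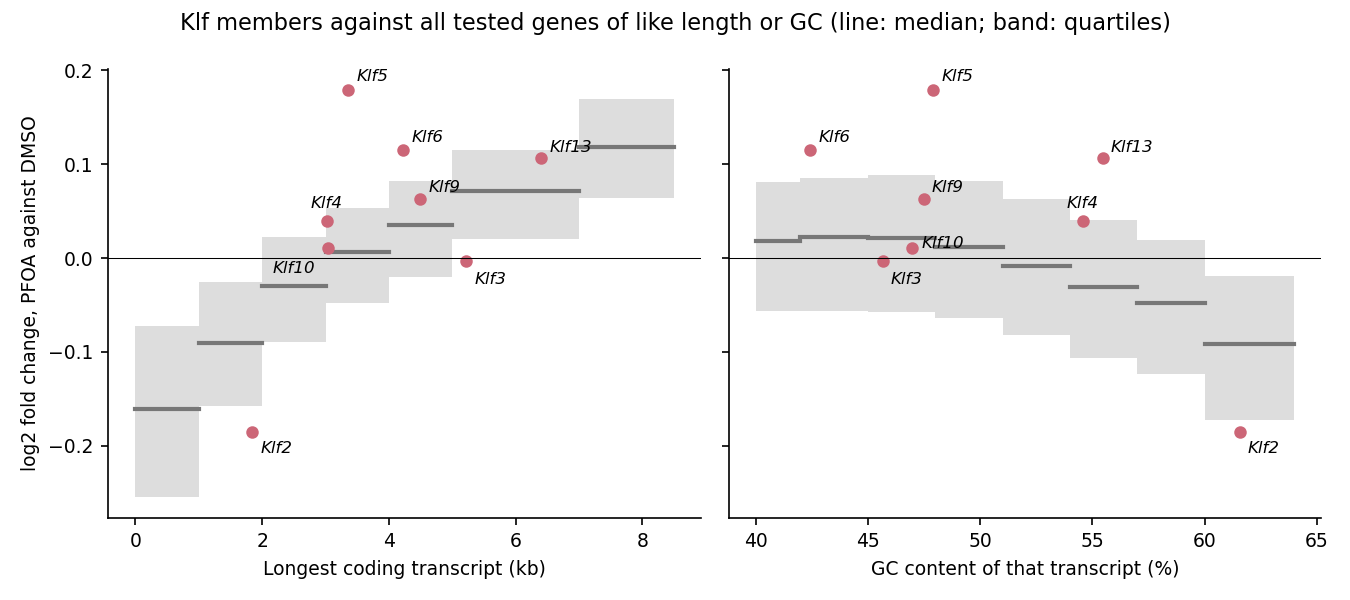
Log2 fold change of PFOA against DMSO for the 8 Klf genes (points) against the length of the longest coding transcript (left, kb) and its GC content (right, %), with the median (grey line) and quartiles (grey band) of all tested genes in the same class; the outermost classes are open and drawn short. Klf5 lies above the quartiles of its classes in both panels, and Klf2 lies below those of its classes.

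When a trend on length was removed from each library, Klf5 kept its difference (log2 fold change 0.18, limma adjusted p = 0.191) and Klf2 went to −0.12 (adjusted p = 0.324), with the groups still apart for both. With the trend on GC content removed after that, Klf5 was at 0.16 and Klf2 at −0.062, and the Klf2 groups overlapped. Relative to the DMSO mean, Klf2 was then −0.030 in PFOA 1, −0.16 in PFOA 2 and 0.0018 in PFOA 3 on the log2 scale, so PFOA 2 alone lay well below the DMSO libraries. Klf13 went from 0.11 to 0.027 with the length trend removed and its groups then overlapped. Klf6 was at 0.089 and Klf4 at 0.051 with the length trend removed, and Klf3 went to −0.056. These removals also take out any true difference that follows length or GC.

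**Figure D4:**
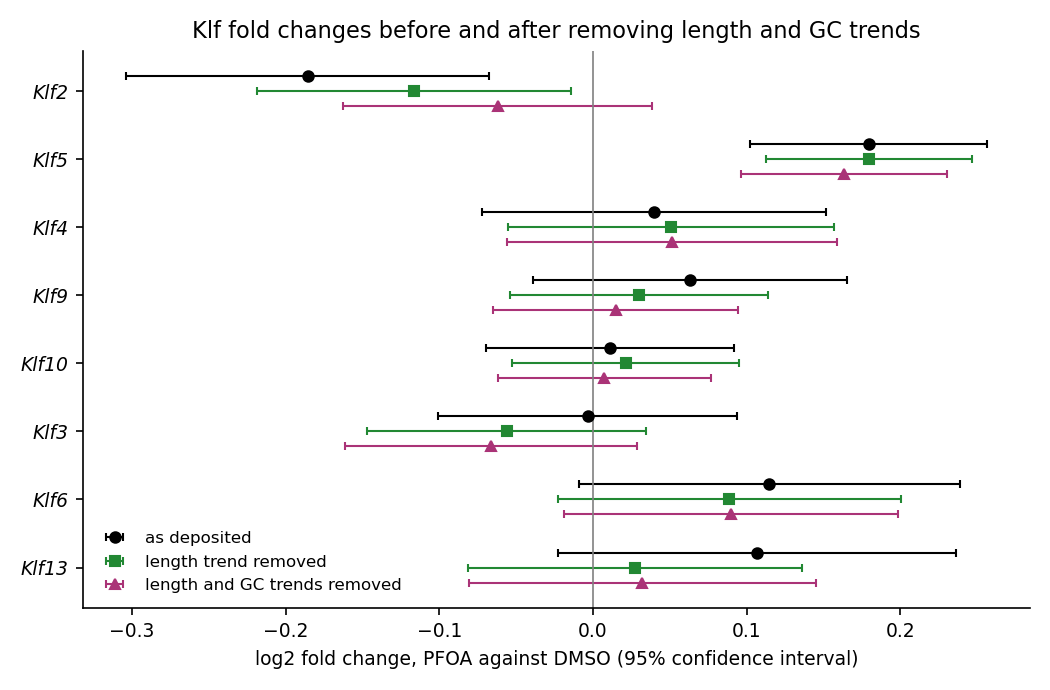
Log2 fold change of PFOA against DMSO with its 95% confidence interval for the 8 Klf genes, from the deposited values (circles), with a length trend removed (squares) and with length and GC trends removed (triangles). The Klf5 interval lies above 0 in all 3 fits, while the Klf2 interval reaches 0 when both trends are removed.

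Promoters of 6 of the 8 members were found in the RefSeq table (GRCm38.p6, a build older than the GRCm39 named in the submitters' processing notes). In the 250 bases before the start, GC content was 71.2% for Klf2, 78.4% for Klf3, 74% for Klf4, 64.8% for Klf6, 59.6% for Klf9 and 71.6% for Klf13, against a median of 52% over 27025 promoters. Klf2 and Klf4 are shown as the naive factors found in the table. Capitals mark the Klf box CACCC, searched on both strands.
Klf2, chr8:72318812-72319061, plus strand: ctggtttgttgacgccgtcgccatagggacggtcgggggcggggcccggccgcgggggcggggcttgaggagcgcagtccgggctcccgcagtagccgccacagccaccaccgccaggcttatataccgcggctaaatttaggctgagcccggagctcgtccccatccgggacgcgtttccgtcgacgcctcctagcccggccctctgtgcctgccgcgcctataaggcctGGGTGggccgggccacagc
Klf4, chr4:55532476-55532725, minus strand: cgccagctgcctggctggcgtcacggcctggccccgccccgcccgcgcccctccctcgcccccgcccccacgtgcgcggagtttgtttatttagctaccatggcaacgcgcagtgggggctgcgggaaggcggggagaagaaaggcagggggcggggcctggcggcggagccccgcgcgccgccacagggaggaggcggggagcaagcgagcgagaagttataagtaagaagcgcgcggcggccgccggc
The Klf2 window holds 1 Klf box, near its end, which overlaps no GC box, and the Klf4 window holds 0. A Klf box is found in 51.3% of all windows of this length. The GC box GGGCGG, to which Sp1 binds, occurs 2 times in the Klf2 window and 4 times in that of Klf4, and is in 32.9% of all windows. The STAT motif TTCNNNGAA is in neither and in 7.18% of all windows, and among the 6 members it is found in Klf9 alone. A match is a description of the letters in these windows and shows no binding.

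The other Klf and Sp genes, paralogs outside the 8, gave a mixed picture. Of 9 other Klf genes 6 were tested, of which 4 were higher in PFOA and 2 lower (median log2 fold change 0.040). Over all tested genes 47.6% were higher. At an unadjusted limma p under 0.05, 2 were higher and 1 lower, where 8.56% of all tested genes were higher and 12.5% lower, and 0 passed over all genes. With the length trend removed, 3 of the 6 other Klf genes were higher (median 0.0039). Klf16 was 33.2, 32.0 and 30.4 FPKM in DMSO and 26.1, 27.7 and 28.7 in PFOA, without overlap (log2 fold change −0.20, adjusted p = 0.128 in limma). Like Klf2, Klf16 has a GC-rich transcript (60.4%), and its log2 fold change was −0.14 with both trends removed. Klf7 was 1.92, 1.97 and 2.18 in DMSO and 2.67, 3.11 and 2.53 in PFOA, and Klf11, a relative of Klf10, was 5.76, 5.22 and 5.84 against 6.76, 6.53 and 6.29. Both were higher in each PFOA library, at log2 fold changes of 0.32 and 0.19, and at 0.21 and 0.15 with both trends removed. Klf17, a Klf gene of the early embryo, was at most 0.56 FPKM.

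Of 9 Sp genes 6 were tested, with 3 higher and 3 lower (median 0.0021), against 47.6% higher over all tested genes, and 0 passed over all genes. At an unadjusted limma p under 0.05, 1 was higher, against 8.56% of all tested genes. That gene was Sp1, at 26.3, 25.8 and 27.7 FPKM in DMSO and 31.6, 29.5 and 29.2 in PFOA, without overlap (log2 fold change 0.17). The Sp1 transcript is 7754 nt, and with the length trend removed its log2 fold change was 0.071. Sp3, a close relative of Sp1, was 31.9, 31.0 and 31.7 in DMSO and 34.6, 32.1 and 30.6 in PFOA, with overlap, and Sp2 was 18.9, 17.3 and 16.5 against 19.3, 17.9 and 18.7. Sp5, a Wnt target, was 9.14, 8.64 and 6.78 against 7.01, 6.73 and 8.34, with wide spread in both groups.

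Among 21 naive pluripotency and LIF pathway genes other than the Klf genes, 11 were higher and 10 lower (median 0.043). The share higher over all tested genes was 47.6%. At an unadjusted limma p under 0.05, 5 were higher and 1 lower (8.56% and 12.5% of all tested genes), and 0 passed over all genes. With the length trend removed these counts were 3 and 0, against 757 higher and 837 lower of all 11876 tested genes. Sall4, a zinc-finger partner of Oct4, was 77.8, 77.1 and 80.2 FPKM in DMSO and 90.8, 84.9 and 87.3 in PFOA. Tfcp2l1, a naive factor downstream of LIF, was 22.4, 22.4 and 24.1 against 29.3, 25.7 and 25.8. Both were higher in each PFOA library, at log2 fold changes of 0.16 and 0.22, and at 0.11 and 0.10 with the length trend removed. Pou5f1 was 965, 1018 and 955 FPKM in DMSO and 849, 890 and 917 in PFOA (log2 fold change −0.15). Its transcript is short (1362 nt), and with the length trend removed its log2 fold change was −0.039. Stat3 itself was 16.3, 15.5 and 16.3 against 17.5, 16.1 and 16.7, with overlap.

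Of 8 corepressor subunits that Klf proteins recruit, 2 were higher and 6 lower (median −0.033), against 47.6% higher over all tested genes. There were 2 in each direction at an unadjusted limma p under 0.05 (8.56% of all tested genes higher, 12.5% lower) and 0 over all genes. With the length trend removed, 2 were higher and 0 lower at that p, against 757 higher and 837 lower of all 11876 tested genes. Sap30, of the SIN3 complex, was 62.7, 66.2 and 64.6 FPKM in DMSO and 54.9, 57.6 and 53.1 in PFOA. Sin3a was 47.5, 47.5 and 48.6 against 58.49, 52.71 and 54.03, and Ctbp2 107, 109 and 110 against 116, 117 and 114. The groups of all 3 genes were apart, at log2 fold changes of −0.22, 0.20 and 0.095, and with the length trend removed they were −0.10, 0.15 and 0.087. Of 7 tested enzymes that modify Klf proteins, 6 were higher (median 0.072), against 47.6% of all tested genes. Over all genes 0 passed. At an unadjusted limma p under 0.05, 1 was higher, against 8.56% of all tested genes. That gene was the acetyltransferase Ep300, at 30.0, 30.0 and 32.5 against 37.9, 33.3 and 32.5, and its log2 fold change of 0.16 was 0.035 with the length trend removed. Across this list, 5 of 7 were higher with the length trend removed (median 0.020), with 0 at an unadjusted limma p under 0.05. The ubiquitin ligase Wwp1, which acts on Klf5, was 10.91, 10.89 and 10.96 against 12.5, 11.47 and 11.4. Fbxo22 was 69.4, 68.9 and 66.0 against 62.4, 66.5 and 66.1. The groups were apart for Wwp1 and overlapped for Fbxo22. The Wwp1 transcript is 6440 nt, and its log2 fold change of 0.10 was 0.020 with the length trend removed.

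Several Klf genes are induced by serum, stress or hormones, so genes with like induction are given beside them. Of 15 tested immediate-early genes 7 were higher and 8 lower (median −0.036), against 47.6% higher over all tested genes. At an unadjusted limma p under 0.05, 0 were higher and 3 lower, against 8.56% and 12.5% of all tested genes, and 0 passed over all genes. With the length trend removed, 1 was higher and 2 lower at that p, against 757 higher and 837 lower of all 11876 tested genes. Jund was 38.2, 34.8 and 33.4 FPKM in DMSO and 28.8, 30.6 and 31.1 in PFOA. Ier2 was 80.0, 83.0 and 73.6 against 66.5, 66.8 and 71.4, and Ier3 was 8.53, 8.79 and 6.96 against 6.96, 6.99 and 6.84. Jund and Ier2 were lower in each PFOA library, while Ier3 overlapped through DMSO 3. With length and GC trends removed, the log2 fold change of Jund went from −0.22 to −0.032 and that of Ier2 from −0.21 to −0.064. Fos was at most 1.18 FPKM in any library. Of 4 tested glucocorticoid-response genes 2 were higher, and of 8 TGF-β pathway genes 5 were higher, against 47.6% of all tested genes. At an unadjusted limma p under 0.05 there were 0 in either list, against 21.1% of all tested genes. With the length trend removed, 1 of 4 and 4 of 8 were higher, against 6059 of all 11876 tested genes. In that fit 1 TGF-β pathway gene was lower at that p. Sgk1, a kinase gene induced by glucocorticoids, was 71.99, 66.81 and 64.16 against 72.15, 68.94 and 75.04. The clock gene Per1 was 8.15, 8.41 and 6.94 against 7.84, 7.34 and 7.18, and the glucocorticoid receptor Nr3c1 was 3.89, 3.74 and 4.02 against 4.56, 3.91 and 3.83. The groups overlapped for all 3 of these genes. Smad3, which carries the TGF-β signal, was 6.04, 5.95 and 6.16 against 6.66, 6.79 and 6.20, higher in each PFOA library. Its log2 fold change of 0.098 was 0.049 with the length trend removed. The inhibitor gene Skil was 12, 12.55 and 13.22 against 15.3, 13.22 and 12.53, and Tgif1 was 203, 206 and 184 against 175, 183 and 203, both with overlap.

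The genes whose pattern over the 6 libraries was most like that of Klf2, by Pearson's r of log2(FPKM + 1) among 6584 genes of at least 10 FPKM, were Chmp6 (r = 0.997), Nudt5 (0.993) and Eif4e2 (0.989). For Klf5 they were Cand2 (0.994), Msn (0.986) and Dtl (0.984). Of the 6584 genes, 240 had r above 0.9 with Klf2 and 124 with Klf5. With only 6 libraries, and with the genes picked for the highest r, these values are a description and no p is given. Cand2 was 11.6, 11.6 and 11.4 FPKM in DMSO and 12.5, 12.6 and 12.6 in PFOA, and moesin (Msn) 50.4, 49.7 and 49.8 against 55.5, 55.6 and 55.4.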

How the data were processed

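The authors deposited FPKM per gene symbol, 1 column per library and to 2 decimals. Bowtie2 2.2.5, HISAT2 2.0.4 and the build GRCm39 stand in the submitters' processing notes without their roles; which program counted fragments, and on which annotation, is not given in the sources used here. Poly(A) libraries were made from total RNA and run on a BGISEQ-500, per the labels' protocols. FPKM divides by transcript length and library total, so a fall in abundant transcripts raises the values of others. The deposited values are not counts, so limma was used in place of a count test. In 1494 low genes, 32.4% of the larger values lay within 0.15 of a whole multiple of the smallest. The smallest value need not stand for a single read, and libraries may differ in scaling. This check therefore cannot tell whether whole reads could be recovered.

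Genes under a mean of 1 FPKM were left out (6512 of 18388), and log2(FPKM + 1) of the rest was fitted with limma 3.58.1 (R 4.3.3), an intensity trend in the prior variance and all 6 libraries; an adjusted p under 0.05 was called. Exact permutation tests of ratios used SciPy 1.17.1. Length and GC content came from GENCODE M21 (97.1% of tested genes had one), and trends were removed per library with lowess (span 0.3). Limma was tested on simulated data. A lack of calls among the members does not show that they were unchanged. Differences of their size can go uncalled with 3 libraries per group. The members, lists and tests were chosen with earlier results of these data known. Named are all members; of each list, up to 3 genes with the smallest p; and any Klf or Sp paralog of at least 10 FPKM. Stat3, Pecam1, Cdh5, Elf5, Tfap2c, Cdx2, Eomes, Gata3, Ptprc, Fos, Cd68, Hba-a1, Dppa5a, Krt8, Krt18 and Klf17 were named after their values were seen. A planned permutation test of the summed members was not made, since a sum over chosen members is a description. Replicate numbers did not pair the libraries.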

Additional observations from a re-analysis of the deposited data

How the results depend on the processing

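None of the 8 members was called in any of the 18 alternatives. Klf2, Klf4, Klf5, Klf6, Klf9 and Klf13 kept their direction in all of them. Klf2 was between −0.23 and −0.062 and Klf5 between 0.16 and 0.22. A changed filter, a constant prior variance and the replicate block cannot alter a log2 fold change, so they do not bear on direction. Apart from the fit with DMSO 3 as the sole control, the limma adjusted p for Klf5 was between 0.081 and 0.356. Klf3, near 0, ranged from −0.018 to 0.020 when 1 library was left out, and turned to 0.0037 under quantile normalization, 0.0013 with median scaling, 0.019 without DMSO 1, 0.020 without PFOA 2 and 0.026 with DMSO 3 as the sole control. Klf10, also near 0, ranged from −0.0018 (without PFOA 1) to 0.022 when 1 library was left out, and was −0.0089 with the GC trend removed, an alternative chosen after seeing the data. The difference in the summed Klf level, −16.6 FPKM, was 3.69 under quantile normalization, −5.27 with DMSO 3 as the sole control, and −23.5 (without PFOA 3) to −8.51 (without PFOA 2) when 1 library was left out; the cause was not tested. Over all genes the 1 call became 0 with no filter on expression, with a constant prior variance, with DMSO 3 as the sole control, with the length trend removed, and with length and GC trends removed (also chosen after seeing the data). It became 2 with library weights and 2 with the GC trend removed. Leaving out 1 library gave 0 to 94 calls, with 52 without DMSO 3 and 94 without PFOA 2. With the replicate number as a block the count was 0; same-numbered libraries did not deviate together (correlations of −0.11, −0.0095 and −0.14), so the numbers were not taken as pairs. The unknown depth leaves the counting error of low members such as Klf13 unmeasured.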
